A study of Mus musculus with 16 samples.

Results

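Hemogenic endothelium cells that lacked functional Sp1 were compared before and after they gained CD41, the surface integrin that marks the first step toward blood. The comparison used the Sp1-/- arrays alone: 2 arrays of hemogenic endothelium I (HE1; KIT+ Tie2+ CD41- cells) and 2 of hemogenic endothelium II (HE2; KIT+ Tie2+ CD41+ cells), 4 of the 16 arrays of the series. All 4 lay on 1 slide. The series covered 2 genotypes and 4 populations with 2 arrays each: Flk1+ mesoderm from embryoid bodies, then HE1, HE2 and KIT+ CD41+ Tie2- progenitors from blast cultures. The cells were mouse embryonic stem (ES) cells differentiated in vitro, with the strain labelled C57BL/6; Sp1+/+ cells were the E14 line. The Sp1-/- allele leaves a truncated protein without its DNA-binding domain. Limits of the model are that the Sp1-/- cells came from 1 ES cell clone and that floating and adherent blast culture cells were combined before sorting. The record calls the replicates independent and the study's text calls them biological, whereas a legend of the study mentions averaged technical replicates. Which kind the 2 arrays of a group are was not settled, so the p-values below may measure technical spread only.

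Blood cells arise in the embryo from a specialized endothelium. Within it, cells with endothelial junctions and receptors switch on Runx1, Gfi1 and Gfi1b and lose their endothelial program. In this process, called the endothelial-to-hematopoietic transition, they round up as CD41+ progenitors. Sp1 is a ubiquitous zinc finger factor that binds GC-rich promoter elements, and the study asked how blood specification proceeds without its DNA-binding activity.

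Levels are deposited log2 normalized probe intensities, and the brightest probe stands for each gene, so that levels of different genes are not comparable. A change is HE2 minus HE1 on that log2 scale, with the standard error (SE) and the Benjamini-Hochberg adjusted p of a limma model fitted to all 16 arrays. The call for a gene asked for p of at most 0.01 before adjustment and a change of 1 or more in log2, which is 2-fold; "rose" and "fell" are used only of called genes. Replicates correlated at r = 0.990 for HE1 and 0.995 for HE2 across 55532 probes, against 0.975 to 0.984 for HE1 with HE2 arrays. The share of probes well above background was 75.9% and 70.6% on the HE1 arrays and 74% and 69.3% on the HE2 arrays. The arrays measured RNA from bulk sorted cells, so fewer cells of a type and less RNA per cell cannot be told apart.

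Of the 3 sorted surface markers only CD41 differs between the gates, and its RNA rose. Itga2b, which encodes CD41, read 10.66 and 11.43 in the HE1 replicates and 12.12 and 12.68 in HE2. It was higher on both HE2 arrays than on either HE1 array, and rose by 1.36 (SE 0.34, adjusted p = 0.0161, limma), or 2.56-fold, although the HE1 cells had been sorted as CD41-. Its level in Sp1-/- Flk1+ mesoderm was 7.54 and 7.98, so on the log2 scale most of the difference in Itga2b between mesoderm and HE2 was already present in HE1. The Itga2b call was lost without HE1 replicate 1 (0.97), without HE2 replicate 2 (1.08) and with the 4 arrays fitted alone (1.35). Kit, the stem cell factor receptor, for which both populations were sorted as positive, read 11.59 and 11.43 in HE1 and 12.75 and 13.04 in HE2, for a rise of 1.38 (SE 0.34, adjusted p = 0.0159, limma); its call was lost without HE1 replicate 2 (1.30) and without HE2 replicate 2 (1.23). Tek, which encodes the endothelial receptor Tie2, gave 11.89 and 11.65 in HE1 and 10.61 and 10.78 in HE2. The Tek arrays did not overlap between the populations, but its change of -1.07 did not pass (SE 0.47, adjusted p = 0.152, limma). With the 4 arrays fitted alone Tek was called lower.

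Sp1 itself checked the genotype. The Sp1 probe read 9.03 and 9.22 in Sp1-/- HE1 and 9.44 and 10.06 in Sp1-/- HE2, against 12.39 and 12.42 in Sp1+/+ HE1 and 12.14 and 12.48 in Sp1+/+ HE2. Each of these Sp1-/- arrays was below each of the Sp1+/+ arrays; where the probe lies relative to the truncation was not determined. The other members of the Sp family with an overlapping binding site had small changes that were not called: 0.17 for Sp2, 0.34 for Sp3 and 0.24 for Sp4.

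Of 37149 genes and other transcripts tested, 773 (2.08%) rose and 1308 (3.52%) fell between HE1 and HE2 in Sp1-/- cells, 5.6% in all. Both HE2 arrays stood above both HE1 arrays for 26.3% of transcripts and below them for 22.9%. Among the 20122 with a mouse gene symbol, 657 rose (3.27%) and 1089 fell (5.41%). The count called in each gene list below stands against these shares. Falls outnumbered rises, 62.9% of all calls, but the steepest changes were rises: 69 genes rose and 29 fell by at least 8-fold. The largest adjusted p among the calls was 0.0527, and 770 rises and 1305 falls also passed an adjusted p of 0.05. The median change of all tested transcripts was 0.01.

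**Figure D1:**
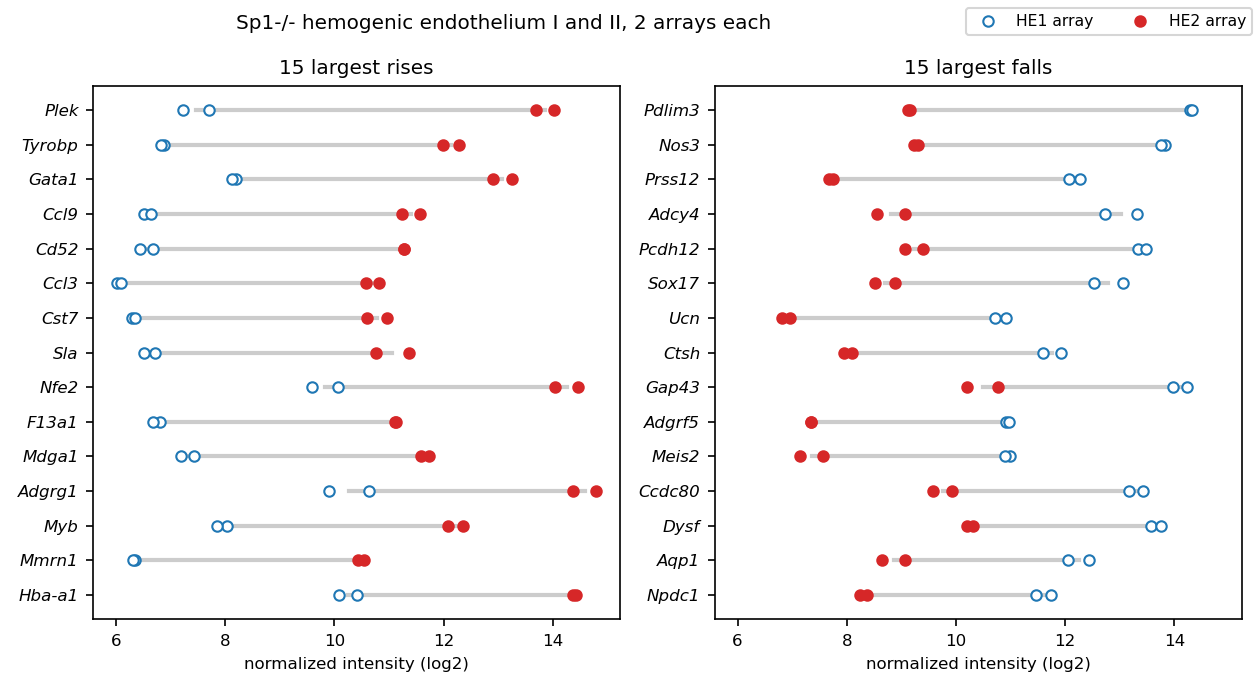
Log2 normalized intensity (x axis) of the 15 genes with the largest rises (left) and the 15 with the largest falls (right) between Sp1-/- HE1 and HE2. Open blue points are the 2 HE1 arrays, filled red points the 2 HE2 arrays and grey lines join the means. Only genes whose populations did not overlap were eligible. They run from Plek at 7.22 and 7.7 against 13.7 and 14.02 to Pdlim3 at 14.28 and 14.32 against 9.12 and 9.15.

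The largest rise was that of Plek, which encodes pleckstrin, a substrate of protein kinase C in platelets and leukocytes. Plek read 7.22 and 7.70 in HE1 and 13.7 and 14.02 in HE2. The change was 6.40 (SE 0.31, adjusted p = 9.36e-07, limma), or 84.4-fold, and the progenitors stood at 14.31 and 14.42, little above HE2. Tyrobp, which encodes the adaptor DAP12 of myeloid and natural killer cell receptors, read 6.87 and 6.83 in HE1 and 11.99 and 12.29 in HE2, for a change of 5.29 (SE 0.37, adjusted p = 8.82e-06, limma), or 39.1-fold. Gata1, the master regulator of erythroid and megakaryocytic genes, read 8.2 and 8.13 in HE1 and 12.9 and 13.25 in HE2. It changed by 4.91 (SE 0.64, adjusted p = 0.000412, limma), or 30.1-fold, and reached 15.6 and 15.67 in the progenitors. Thus 1 platelet and leukocyte gene, 1 myeloid gene and 1 erythroid factor led the rises.

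Several of the other largest rises were of leukocyte genes. The chemokine gene Ccl9 rose by 4.83, Cd52, a glycosylated surface antigen of leukocytes, by 4.71 from 6.44 and 6.68 to 11.27 on both arrays, and the cystatin gene Cst7 by 4.46. Ccl3, another chemokine gene, read 6.02 and 6.09 in HE1, not well above background, and 10.82 and 10.58 in HE2, at least 25-fold higher (adjusted p = 5.18e-06, limma). Sla, a Src-like adaptor that dampens antigen receptor signaling, went from 6.52 and 6.71 to 10.76 and 11.36. The others were F13a1, a subunit of coagulation factor XIII, with 4.37; Mdga1, a membrane-anchored immunoglobulin superfamily protein, with 4.35; Adgrg1 (GPR56), an adhesion receptor of hematopoietic stem and progenitor cells, with 4.32; and Mmrn1, the factor V-binding multimerin of platelet granules, with 4.15. Nfe2, Myb and Hba-a1 complete the 15. The dimmer second probes of F13a1 (0.87) and Mdga1 (0.26) gave much smaller changes.

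Transcription factors of the blood program rose selectively. Of 27 tested, 10 rose (37%, against 3.27% of all genes with a symbol) and none fell, with a median change of 0.67. Nfe2, the erythroid and megakaryocytic leucine zipper factor, read 9.59 and 10.06 in HE1 and 14.05 and 14.47 in HE2, for a change of 4.44 (SE 0.52, adjusted p = 0.000217, limma). Myb, required for definitive hematopoiesis, read 8.04 and 7.85 in HE1 and 12.36 and 12.08 in HE2, for a change of 4.28 (SE 0.50). Klf1, the erythroid Krüppel-like factor, read 6.78 and 6.66 in HE1 and 10.02 and 10.36 in HE2, for a change of 3.47 (SE 0.59, adjusted p = 0.00187, limma). For all 3 factors the lower HE2 array lay more than 3 log2 units above the higher HE1 array. Ikzf1, the lymphoid and myeloid zinc finger factor Ikaros, rose by 3.36, and Gfi1b, a repressor of endothelial genes, rose by 3.12 from 10.09 and 10.94 to 13.48 and 13.79. Spi1, which encodes the myeloid factor PU.1, was not well above background in HE1, at 6.07 and 6.12, and stood at 8.67 and 8.93 in HE2, at least 6.52-fold higher.

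Runx1, the factor on which the transition depends, was already bright in Sp1-/- HE1 and rose further. It read 10.76 and 11.44 in HE1 and 13.36 and 13.26 in HE2, for a change of 2.21 (SE 0.32, adjusted p = 0.000699, limma), or 4.63-fold. Its Flk1+ mesoderm values of 10.6 and 10.83 were close to those in HE1. Mef2c rose by 1.36 and Meis1 by 1.18. The factors that mark the hemangioblast and hemogenic endothelium had no called change: 0.67 for Tal1, 0.91 for Lyl1, 0.44 for Lmo2, -0.12 for Gata2, -0.21 for Fli1 and 0.31 for Erg. Gata2 stayed between 11.75 and 12.11 on all 4 arrays.

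Megakaryocyte and platelet genes rose as a group, 22 of 36 tested with a median change of 1.36, while 2 fell. The shares were 61.1% that rose and 5.56% that fell, against 3.27% and 5.41% of all genes with a symbol. The share that fell was thus near that of all genes. Itgb3, the integrin partner of CD41, read 10.46 and 11.83 in HE1 and 14.81 and 14.89 in HE2, for a change of 3.70 (SE 0.41). The HE1 replicates of Itgb3 were apart, yet both were far below HE2. P2rx1, an ATP-gated channel of platelets, rose by 3.79 and the triggering receptor gene Treml1 by 3.35. Gp9, a subunit of the von Willebrand factor receptor, rose by 2.23, the platelet chemokine gene Pf4 by 2.14 and Gp1ba by 1.31. Ppbp, another platelet chemokine gene, gave 0.04. The 2 that fell are also made by endothelium: Vwf, the von Willebrand factor gene, from 12.15 and 12.66 to 11.33 and 11.4, and Thbs1, the thrombospondin gene, which changed by -1.07. With the 75th percentile scaling 0 were called lower, and 1 was with the 4 arrays alone, without either HE1 array and without HE2 replicate 2.

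Myeloid genes rose in 19 of 36 cases with a median of 1.27 (2.23 with the 75th percentile scaling), and 2 fell. The shares were 52.8% that rose and 5.56% that fell, against 3.27% and 5.41% of all genes with a symbol. The share that fell was thus near that of all genes. Fcer1g, the common Fc receptor chain, went from 9.03 and 9.25 in HE1 to 12.97 and 13.41 in HE2. Mpo, the myeloperoxidase of granulocyte and monocyte precursors, read 10.23 and 10.71 in HE1 and 13.42 and 13.81 in HE2, for a change of 3.14 (SE 0.53, adjusted p = 0.00183, limma). Cebpb, a myeloid leucine zipper factor, rose by 3.31, as did the lysozyme gene Lyz1. The 5-lipoxygenase gene Alox5 rose by 3.11 and that of its activating protein, Alox5ap, by 3.68. The neutrophil granule genes Elane (-0.61) and Ctsg (-0.47) and the macrophage gene Adgre1 (-0.06) were not called. Csf1r, the macrophage colony stimulating factor receptor, read 11.11 and 11.59 in HE1 and 12.24 and 13.28 in HE2, and its change of 1.41 lost its call without HE2 replicate 2 (0.89), without HE1 replicate 1 (1.17) and as a mean over probes (0.73). With the 4 arrays fitted alone Csf1r also lost its call. Mrc1, the mannose receptor of macrophages and of some endothelium, fell by 2.42. Itgam fell by 1.35 on its brightest probe, with both of its other probes moving the opposite way.

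Leukocyte signaling and cytoskeleton genes rose in large part. Of 42 tested, 26 rose (61.9%, against 3.27% of all genes with a symbol) and none fell, and the median change was 1.6. Ptpn6, which encodes the phosphatase SHP-1, read 8.58 and 8.98 in HE1 and 12.39 and 12.83 in HE2, for a change of 3.83 (SE 0.18, adjusted p = 7.61e-07, limma). Vav1, the blood cell guanine nucleotide exchange factor, read 9.3 and 9.56 in HE1 and 12.82 and 13.38 in HE2. Its change was 3.67 (SE 0.18). Btk, the Bruton tyrosine kinase, rose by 3.75 and Coro1a, a leukocyte actin regulator, by 3.34. Ptprc, the gene of the leukocyte antigen CD45, rose from a low level, from 6.42 and 6.61 to 8.13 and 8.81, a change of 1.95. Cd44 (-0.29) and Cd48 (-0.04) were not called.

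Erythroid genes rose too, with a wider error. Among 11 globin genes, 5 rose (45.5%, against 3.27% of all genes with a symbol), and the median change of 2.65 was the highest of any list. The embryonic globin gene Hbb-bh1 was already bright in HE1, at 13.48 and 13.68, and read 17.46 and 17.42 in HE2, for a change of 3.86 (SE 1.04, adjusted p = 0.0242, limma). Hba-a1 went from 10.08 and 10.42 to 14.42 and 14.37 (4.15, SE 1.33, adjusted p = 0.0517, limma). In both cases the Sp1-/- arrays were tight, while the Sp1+/+ HE1 arrays, which share the model's error, read 12.44 and 7.32 for Hba-a1. Fitted on the 8 or on the 4 Sp1-/- arrays alone, 8 of the 11 globin genes were called; with a replicate block or the 75th percentile scaling 2 were, and with any 1 of the 4 arrays left out 0 or 1 were. Hba-a2 (3.96), Hba-x (3.78) and Hbb-y (3.14) were not called. Near-identical globin copies may share probe signal, so their separate values are uncertain.

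Of 30 red cell membrane and erythroid genes, 13 rose and 2 fell, with a median of 0.88 (1.33 with the 75th percentile scaling). The shares were 43.3% that rose and 6.67% that fell, against 3.27% and 5.41% of all genes with a symbol. The share that fell was thus near that of all genes. Gypc, a glycophorin gene, rose by 2.13 from 12.01 and 12.11 to 14.1 and 14.29. Epor, the erythropoietin receptor, rose by 1.70. Both falls were of membrane transporters that endothelium also carries, the water channel Aqp1 (12.43 and 12.06 to 9.07 and 8.64) and the glucose transporter Slc2a1 (-1.26; call lost without HE1 replicate 1, at -0.82, and without HE2 replicate 2, at -1.03). The Slc2a1 call was also lost with the 75th percentile scaling and with the 4 arrays fitted alone. Of 9 heme enzymes 3 rose (33.3%). Alas2, the erythroid first enzyme of heme synthesis, went from 7.38 and 7.46 to 10.45 and 10.25 (2.93, SE 0.56, adjusted p = 0.00398, limma), whereas its housekeeping counterpart Alas1 gave -0.51.

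Of 31 cytokine receptors and ligands tested, 11 rose and 5 fell, with a median of 0.56. The shares were 35.5% and 16.1%, against 3.27% and 5.41% of all genes with a symbol. The risers included receptors of blood cells: Il6ra by 3.01, the shared receptor chain genes Csf2rb by 2.53 and Csf2rb2 by 2.10, Il1rl1 (the interleukin-33 receptor) by 2.29 and Il17ra by 2.27. The falls included 2 ligands that stromal and endothelial cells provide, the macrophage growth factor gene Csf1 (12.6 and 12.28 to 10.39 and 9.91, -2.29) and the stem cell factor gene Kitl (-1.11). The other falls were the receptor genes Lifr, Il1r1 and Ifngr2, and without HE2 replicate 1 the falls numbered 3. Flt3, a receptor of lymphoid-primed progenitors, gave 0.24. The dimmer probes of Il1rl1 gave only 0.43 and 0.52.

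The largest fall was that of Pdlim3, an actinin-associated PDZ and LIM domain gene. It read 14.28 and 14.32 in HE1 and 9.12 and 9.15 in HE2. Pdlim3 fell by 5.16 on the log2 scale (SE 0.67, adjusted p = 0.000398, limma), a 35.9-fold difference, and the progenitors stood at 6.7 and 6.5. Nos3, the endothelial nitric oxide synthase, read 13.82 and 13.75 in HE1 and 9.31 and 9.23 in HE2, and fell by 4.51 (SE 0.73, adjusted p = 0.00141, limma), or 22.9-fold. Prss12, Adcy4 and Pcdh12 came next. Sox17, an arterial and hemogenic endothelium SRY-box factor that ranked after them, read 13.05 and 12.53 in HE1 and 8.88 and 8.51 in HE2, and fell by 4.09 (SE 0.80, adjusted p = 0.00422, limma). For Pdlim3, Nos3 and Sox17 the lower HE1 array lay more than 3 log2 units above the higher HE2 array, while replicates lay close together.

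Several of the other largest falls are endothelial genes as well. Pcdh12, the vascular endothelial protocadherin, fell by 4.18, and Adcy4, an adenylyl cyclase, changed by -4.22, from 12.73 and 13.31 to 8.55 and 9.06. Adgrf5, an adhesion receptor of capillaries, fell by 3.60. Other falls were of the brain serine protease gene Prss12 (12.07 and 12.28 to 7.68 and 7.75), the neuropeptide gene Ucn (-3.93), the cathepsin gene Ctsh (-3.74), the growth cone gene Gap43 (-3.61) and the homeobox gene Meis2 (10.98 and 10.89 to 7.57 and 7.14). Meis2 fell while its relative Meis1 rose. Ccdc80, Dysf, Aqp1 and Npdc1 complete the 15 largest falls.

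Among 49 endothelial receptor and junction genes 25 fell and 1 rose, with a median of -1.15. The shares were 51% that fell and 2.04% that rose, against 5.41% and 3.27% of all genes with a symbol. Robo4, the endothelial roundabout receptor, read 13.18 and 13.4 in HE1 and 10.36 on both HE2 arrays, a change of -2.93 (SE 0.73, adjusted p = 0.0159, limma). Cdh5, the VE-cadherin gene, kept more of its level: HE1 had 14.54 and 14.62, HE2 13.09 and 12.88, and the progenitors 9.12 and 9.61. It fell by 1.59 (SE 0.43, adjusted p = 0.0249, limma). Other falls were -3.02 for Mmrn2, -2.70 for Stab1, -2.37 for Icam2 and -1.58 for Eng. The early receptors were not called: Kdr, the VEGF receptor gene for Flk1, gave -0.62, Pecam1 -0.63, Tie1 -0.83 and Flt1 -0.91, and Kdr was between 14.18 and 15.37 on all 4 arrays. Cd34, which endothelium and blood progenitors share, rose from 13.83 and 14.13 to 15.47 and 15.7 (1.6, SE 0.33, adjusted p = 0.00546, limma). The Robo4 call was lost without either HE2 array (-2.93 each), without HE1 replicate 2 (-2.82) and with the 75th percentile scaling (-2.63), and the Icam2 call with any 1 of the 4 arrays left out (-2.19 to -2.55). With a replicate block the Icam2 call was lost too. The 25 falls became 16 without HE2 replicate 1 and also 16 without HE2 replicate 2.

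Endothelial transcription factors followed, 10 of 26 falling and 1 rising with a median of -0.63 (-1.01 with the 75th percentile scaling). The shares were 38.5% that fell and 3.85% that rose, against 5.41% and 3.27% of all genes with a symbol. The share that rose was thus near that of all genes. Beside Sox17, its relative Sox7 fell from 13.16 and 13.06 to 10.55 and 10.34 (-2.67, adjusted p = 0.0269, limma), and Sox18 at -1.11 was not called. The other falls included -2.60 for Foxc2, -2.48 for Bcl6b, -2.39 for Gata6, -1.64 for Nr2f2, the venous factor COUP-TFII, and -1.43 for Ets1. Mef2c was the riser. The calls of Sox7 (-2.56 to -2.77) and Bcl6b (-2.35 to -2.61) were lost with any 1 of the 4 arrays left out, and that of Ets1 without HE2 replicate 1 (-1.28) and without HE1 replicate 2 (-1.25). With the 75th percentile scaling the Sox7 and Bcl6b calls were lost too. Without HE1 replicate 1, without HE1 replicate 2 or without HE2 replicate 2 the falls numbered 6.

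In the Notch pathway and among arterial genes, 12 of 31 fell and 1 rose (median -0.46, or -1.27 with the 75th percentile scaling). The shares were 38.7% that fell and 3.23% that rose, against 5.41% and 3.27% of all genes with a symbol. The share that rose was thus that of all genes. The riser, Mfng, encodes manic fringe, a glycosyltransferase that modifies Notch receptors: it read 9.63 and 9.87 in HE1 and 12.69 and 12.91 in HE2 (3.05, SE 0.14, adjusted p = 7.61e-07, limma). Receptors fell, with -2.93 for Notch4 and -1.69 for Notch1, as did the arterial genes Unc5b (-2.88), Efnb2 (-2.61), Gja4 (-2.36) and Nrp1 (-2.20) and the Notch target gene Hey2 (-1.95). A dimmer probe of Efnb2 gave only -0.72. The ligand genes Dll4 (-0.55) and Jag1 (-0.45) and the target genes Hes1 (-0.35) and Hey1 (-0.41) were not called.

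No member of the TGF-beta and BMP list rose and 14 of 42 fell (33.3%, against 5.41% of all genes with a symbol, median -0.60). They spanned ligands (Bmp6 -3.09, Tgfb2 -2.14), receptors (Acvrl1 -2.22, Acvr1 -2.10), extracellular inhibitors (Bmper -2.50, Fst -2.36), the intracellular inhibitors Smad7 (-1.49) and Smad6 (-1.47), and the target gene Id3 (-1.6). Tgfb1 gave 0.81 and was not called. Of 49 Wnt pathway genes, 8 fell and 1 rose (median -0.34), with 16 falls under the 75th percentile scaling. The main shares were 16.3% that fell and 2.04% that rose, against 5.41% and 3.27% of all genes with a symbol. The nuclear factor genes Tcf7l1 (11.74 and 11.47 to 8.71 and 7.98) and Lef1 (-2.67) fell farthest, and Rspo3, an enhancer of Wnt signaling, gave -2.07 and the frizzled receptor gene Fzd2 -1.98. A dimmer probe of Fzd2 gave only -0.22. Lgr5, a receptor for R-spondins, rose by 1.57.

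Matrix and adhesion genes fell in the largest number. Of 50 basement membrane and matrix genes 29 fell (58%, against 5.41% of all genes with a symbol) and none rose (median -1.32). Nid1, the nidogen that links laminin to collagen IV, read 14.39 and 13.87 in HE1 and 11.08 and 10.81 in HE2 (-3.18, SE 0.34, adjusted p = 0.000121, limma). Col4a1, the collagen IV chain, read 14.68 and 14.6 in HE1 and 12.36 and 12.42 in HE2. Laminin genes fell (Lama1 -2.38, Lamb1 -2.24), with the perlecan gene Hspg2 at -2.37, whereas Fn1, the fibronectin gene, gave -0.15. Of 24 integrins, 3 rose, Itgb3, Itga4 (8.4 and 8.2 to 10.79 and 10.81) and Itga2b, and 8 fell, among them the leukocyte integrin Itgam (-1.35, with the probes in conflict), the laminin and collagen receptor genes Itga7 (-2.16) and Itga1 (-1.6) and the vitronectin receptor chain Itgb5 (-2.21). Without HE2 replicate 1, and with the 75th percentile scaling, 6 integrins rose. In the main fit 12.5% of the integrins rose and 33.3% fell, against 3.27% and 5.41% of all genes with a symbol. The Itga1 call was lost without HE1 replicate 2 (-1.46) and without HE2 replicate 2 (-1.53).

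Smooth muscle and cardiac markers fell beside the endothelial and matrix genes. The shares that fell were 35.7% and 33.3%, against 5.41% of all genes with a symbol. Smooth muscle and mesenchymal genes fell in 10 of 28 cases and none rose (median -1.04), with 5 falls and a median of -0.55 without HE1 replicate 1 and a median of -1.68 with the 75th percentile scaling. Their summed linear intensity was 428000 and 270000 in HE1 and 131000 and 82100 in HE2. Acta2, the smooth muscle actin gene, had the brightest probe and gave the largest part of that sum, so the sum mostly follows 1 gene. Acta2 was well above background on every array: HE1 had 17.84 and 17.12, HE2 16.09 and 15.36, and progenitors 12.85 and 12.77. Twist2 gave -2.84, Twist1 -2.11 and the collagen gene Col1a2 -1.97. Without HE1 replicate 1 or HE2 replicate 2 the calls of Acta2 (-1.39 each) and Col1a2 (-1.61 and -1.71) were lost. Of 24 cardiac genes 8 fell and none rose (median -0.50; -0.25 without HE1 replicate 1, -0.89 without HE1 replicate 2 and -1.33 with the 75th percentile scaling), with summed intensities of 57500 and 37300 in HE1 and 15200 and 10500 in HE2. Nkx2-5, the cardiac homeobox gene, went from 10.93 and 10.71 to 7.91 and 7.47, Gata4 from 13.19 and 12.85 to 10.4 and 10.06, and Tnnt2, cardiac troponin T, fell by 2.98. Markers of epithelium, endoderm and pluripotent cells fell in 2 of 24 cases, 8.33% against the 5.41% of all genes with a symbol, Sox17, which is also on the endothelial list, and Foxa2 (-1.20; call lost without HE1 replicate 1, at -0.68, and without HE2 replicate 2, at -1.12), with summed intensities of 99200 and 52600 in HE1 and 38500 and 22500 in HE2. The Foxa2 call was also lost as a mean over probes and with the 4 arrays fitted alone. Not well above background on any of the 4 arrays were Tbx18 of the mesenchymal list, Myl2, Ttn and Pln of the cardiac list, and Epcam, Ttr and Apoa1 of the epithelial and endoderm list. The part of these cell types in the falls of endothelial, matrix and signaling genes was not tested.

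Genes of the endothelial-to-mesenchymal switch fell in 7 of 13 cases with none rising (median -1.51), including Zeb1 (-1.62), Vim (17.48 and 17.37 to 15.95 and 15.88) and Snai1 (-1.33; call lost without HE1 replicate 1, at -0.83, and without HE2 replicate 2, at -0.91). The Snai1 call was also lost with the fit on the 8 or on the 4 Sp1-/- arrays alone. The share of this list that fell was 53.8%, against 5.41% of all genes with a symbol. Zeb2, which blood cells use, gave 0.12. Snai2 gave -1.66 and was not called (adjusted p = 0.0537, limma).

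Of 39 Hox genes, 9 fell (23.1%, against 5.41% of all genes with a symbol) and none rose. Their median of -0.27 was -0.81 with an offset of 16 and -1.84 with the 75th percentile scaling. Of the 9, 8 lie in the Hoxb cluster: Hoxb2 to Hoxb9. Hoxb2 read 12.16 and 12.32 in HE1 and 9.61 on both HE2 arrays (-2.63, SE 0.47, adjusted p = 0.0027, limma), and Hoxb5 fell by 2.81. Only the cluster's end genes, Hoxb1 and Hoxb13, were not called among its tested members. The Hoxb8 call was lost without HE1 replicate 1 (-2.07) and without HE2 replicate 2 (-2.13). Under the 75th percentile scaling 15 Hox genes fell. Of the Sp and Klf list 3.85% rose and 11.5% fell, against 3.27% and 5.41% of all genes with a symbol. Among the 26 Sp and Klf factors, which share a zinc finger DNA-binding domain, Klf1 rose and Klf14 (-1.79), Klf4 (-1.32) and Klf3 (-1.12) fell, with 7 falls without HE2 replicate 1. The Klf4 call was lost without HE1 replicate 1 (-1.06), without HE2 replicate 2 (-0.90) and with the 4 arrays fitted alone. The Klf3 call was lost with the 75th percentile scaling (-0.81).

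**Figure D2:**
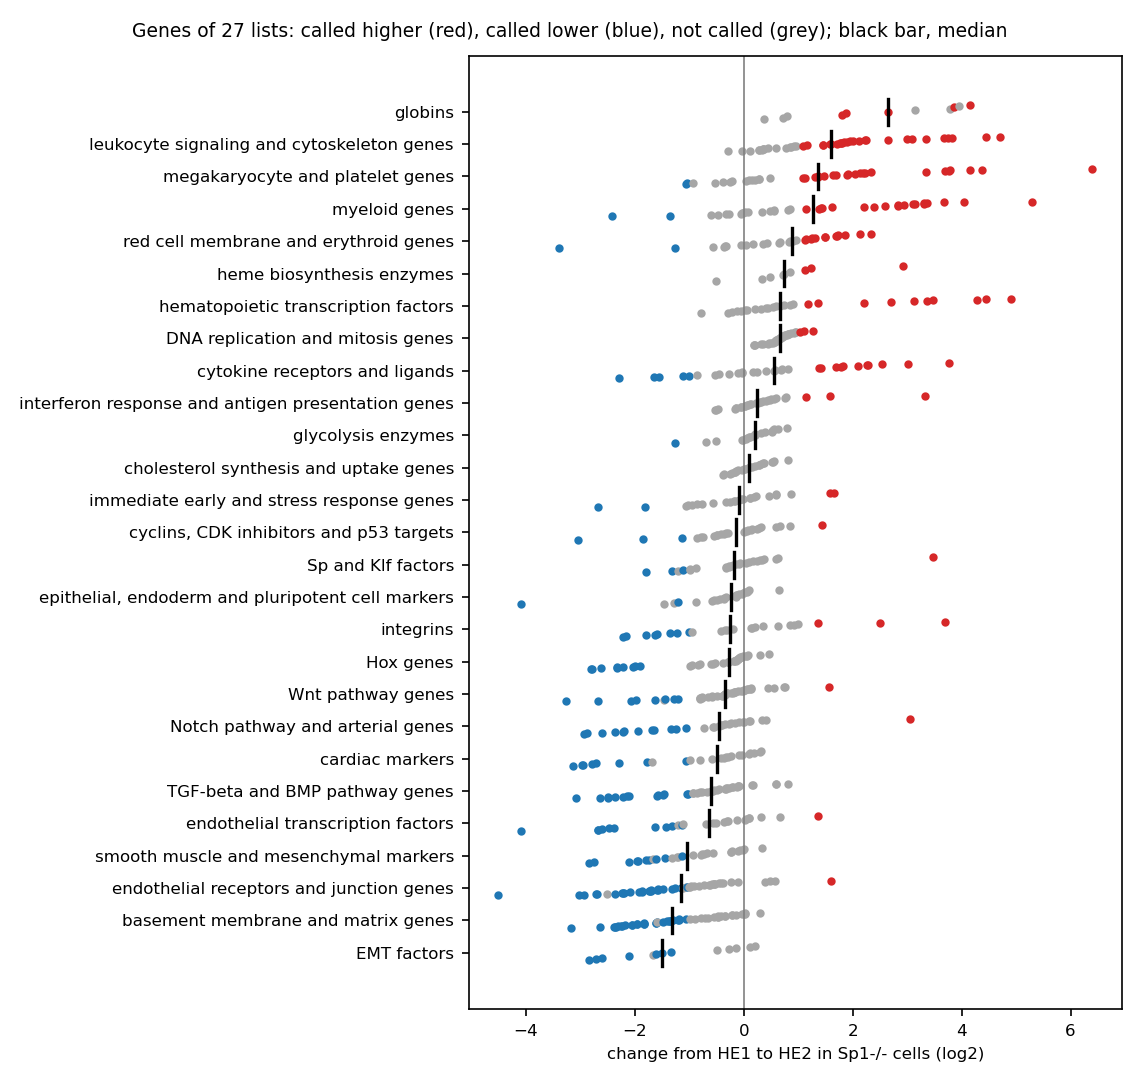
Change from HE1 to HE2 in Sp1-/- cells (x axis, log2) for every tested gene of 27 gene lists, ordered by median. Red points rose, blue points fell, grey points were not called and black bars are list medians, which run from 2.65 for globins to -1.51 for factors of the endothelial-to-mesenchymal switch.

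DNA replication and mitosis genes had positive values in 40 of 40 cases and a median of 0.66, and 3 of them rose: the spindle checkpoint kinase gene Bub1b (11.59 and 11.57 to 12.68 and 13.02), Kif11 and Pola1. The Pola1 call was lost without HE1 replicate 2 (0.65), without HE2 replicate 1 (0.77) and with the 4 arrays fitted alone. Mki67, the proliferation antigen, gave 0.60. More of the list passed with the 75th percentile scaling (9), without HE1 replicate 1 (6) and without HE2 replicate 2 (5). Cdkn1c, the cell cycle inhibitor p57, was bright in HE1 at 14.45 and 14.43 and fell to 11.68 and 11.13 (-3.04, SE 0.35, adjusted p = 0.000194, limma). Ccnd1, the cyclin D1 gene, fell by 1.86, a call lost with any 1 of the 4 arrays left out (-1.78 to -1.96), and E2f2, an S phase factor, rose by 1.44. None of the 24 cholesterol genes was called, and of 21 glycolysis genes only Slc2a1 was. In the interferon list 3 of 30 rose (median 0.25), led by Ifitm1 from 11.1 and 10.42 to 14.02 and 14.15; 5 rose with the 75th percentile scaling. Of 25 immediate early and stress response genes, 2 rose, Ier3 (1.66) and Trib3 (1.58), and 2 fell, Atf3 (-2.67) and Hspb1 (-1.81). With the 4 arrays fitted alone the Hspb1 call was lost. Among all genes with a symbol 3.27% rose and 5.41% fell. The shares that rose were 7.5% for replication and mitosis, 10% for interferon and 8% for immediate early and stress genes. The shares that fell were 4.76% for glycolysis and 8% for immediate early and stress genes.

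The same transition in Sp1+/+ cells, on the other slide, gave the background for these changes. There 399 transcripts rose (1.07%) and 829 fell (2.23%), 3.31% in all. Of the 773 risers in Sp1-/- cells 324 (41.9%, and 81.2% of the Sp1+/+ risers) were called in both genotypes, as were 703 of the 1308 that fell (53.7%, and 84.8% of the Sp1+/+ falls), and none was called in opposite directions. The median change of the Sp1-/- risers was 1.40 in Sp1-/- and 0.90 in Sp1+/+ cells; those genes were chosen for their change in Sp1-/- cells, so their smaller value in the other genotype is not a result. Replicates of Sp1+/+ cells lay far apart for many of these genes: Gata1 read 9.57 and 6.89 in Sp1+/+ HE1, and Nos3 read 9.72 and 11.7 in Sp1+/+ HE2. Genotype and slide cannot be told apart for any difference between the genotypes, whereas each transition is a difference within a slide.

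**Figure D3:**
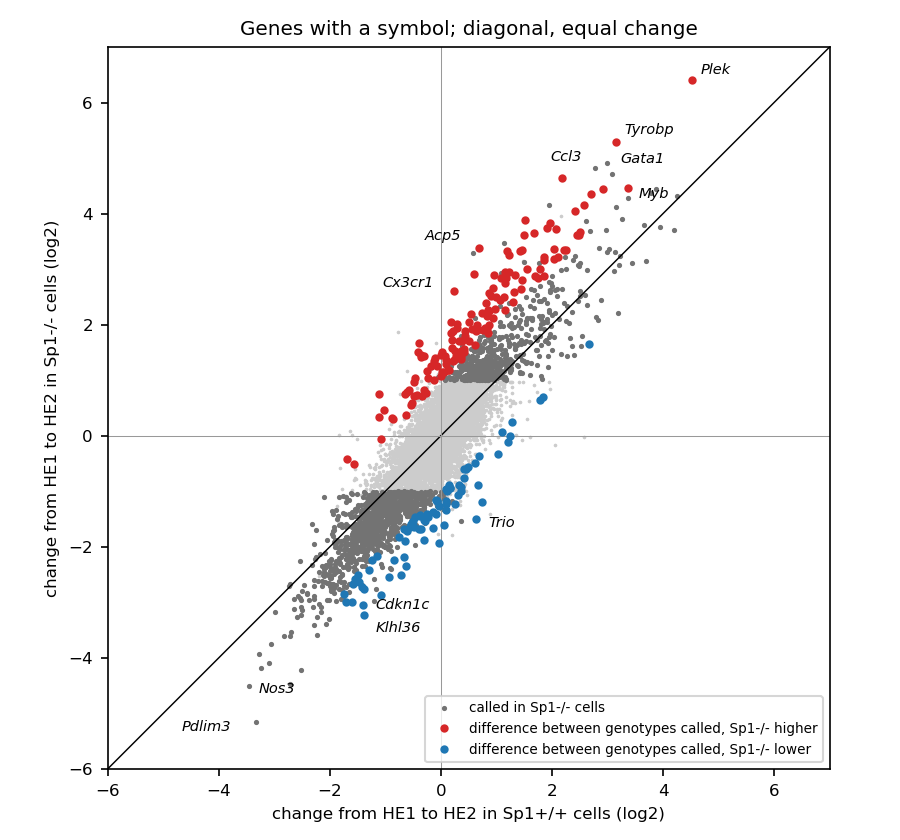
Change from HE1 to HE2 (log2) of each gene with a symbol in Sp1+/+ cells (x axis) and Sp1-/- cells (y axis), with the line of equal change. Dark grey points were called in Sp1-/- cells, red and blue points had a called difference between the genotypes, and light grey points neither; Plek, at 6.40 in Sp1-/- and 4.53 in Sp1+/+ cells, lies farthest toward the upper right.

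The difference of the changes, Sp1-/- minus Sp1+/+, was called for 275 transcripts (0.74%), 160 of them higher (0.431%) and 115 lower (0.31%), or 0.681% and 0.383% of the genes with a symbol. At an adjusted p of 0.05, 23 and 13 passed. Without Sp1-/- HE1 replicate 1 the balance turned, to 331 higher and 601 lower, and without Sp1-/- HE2 replicate 2 only 67 were lower. The largest higher differences included genes of myeloid cells. Acp5, the tartrate-resistant phosphatase of osteoclasts and macrophages, read 8.37 on both Sp1-/- HE1 arrays and 11.64 and 11.86 in Sp1-/- HE2, against 8.9 and 8.02 and then 9.81 and 8.49 in Sp1+/+ cells. Its difference of 2.69 had an adjusted p of 0.328 (limma), and the call was lost without Sp1+/+ HE1 replicate 1 (2.25), without Sp1+/+ HE2 replicate 2 (2.03) and without Sp1-/- HE2 replicate 2 (2.58). Cx3cr1, the fractalkine receptor of monocytes, read 6.82 and 6.24 and then 9.21 and 9.06 without Sp1, and 6.71 and 6.77 and then 6.98 and 6.97 with it. The Cx3cr1 difference of 2.37 had an adjusted p of 0.126 (limma). The Sp1+/+ arrays of Acp5 overlapped between the populations and those of Cx3cr1 were close together.

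The differences that passed an adjusted p of 0.05 include Ambp, which encodes the alpha-1-microglobulin and bikunin precursor. It was not well above background in Sp1-/- HE1 (6.21 and 6.17), read 8.98 and 9.22 in Sp1-/- HE2, at least 7.52-fold higher, and stayed between 5.99 and 6.87 in Sp1+/+ cells (difference 2.32, adjusted p = 0.00721, limma); with the 75th percentile scaling the difference of 2.86 was not called. Ccdc88b, a microtubule-linked protein of leukocytes, rose from 6.35 and 6.28 to 9.53 and 9.62 in Sp1-/- cells and from 6.38 and 6.34 to 7.63 and 7.53 in Sp1+/+ cells (difference 2.04, adjusted p = 0.01, limma). Ptpn6 and Btk rose in both genotypes, with differences of 1.87 (adjusted p = 0.0301, limma) and 1.84 (adjusted p = 0.0393, limma). In the other direction stood Klhl36, a substrate adaptor gene of the kelch family, and Trh, the thyrotropin-releasing hormone gene. Klhl36 went from 11.29 and 11.63 to 8.21 and 8.26 in Sp1-/- cells and from 11.2 and 11.18 to 9.55 and 10.05 in Sp1+/+ cells (difference -1.84, adjusted p = 0.0305, limma). Trh read 10.87 and 10.64 and then 8.94 and 8.71 without Sp1, and was between 7.97 and 8.17 on all 4 Sp1+/+ arrays (difference -1.90, adjusted p = 0.0365, limma), so that its fall led toward the Sp1+/+ level.

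CD45 and Csf1r also differed by this call. The change of Ptprc was 1.95 without and 0.30 with Sp1 (difference 1.65, adjusted p = 0.258, limma), and that of Csf1r 1.41 and -0.36 (difference 1.77, adjusted p = 0.357, limma); both were chosen for mention after their values were seen. The factors Runx1 (2.21 and 3.19), Myb (4.28 and 3.37) and Gata1 (4.91 and 3) and the marker Itga2b (1.36 and 1.47) had no called difference. The same held for the endothelial genes Nos3 (-4.51 and -3.46), Sox17 (-4.09 and -3.10), Robo4 (-2.93 and -2.65) and Cdh5 (-1.59 and -1.28).

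**Figure D4:**
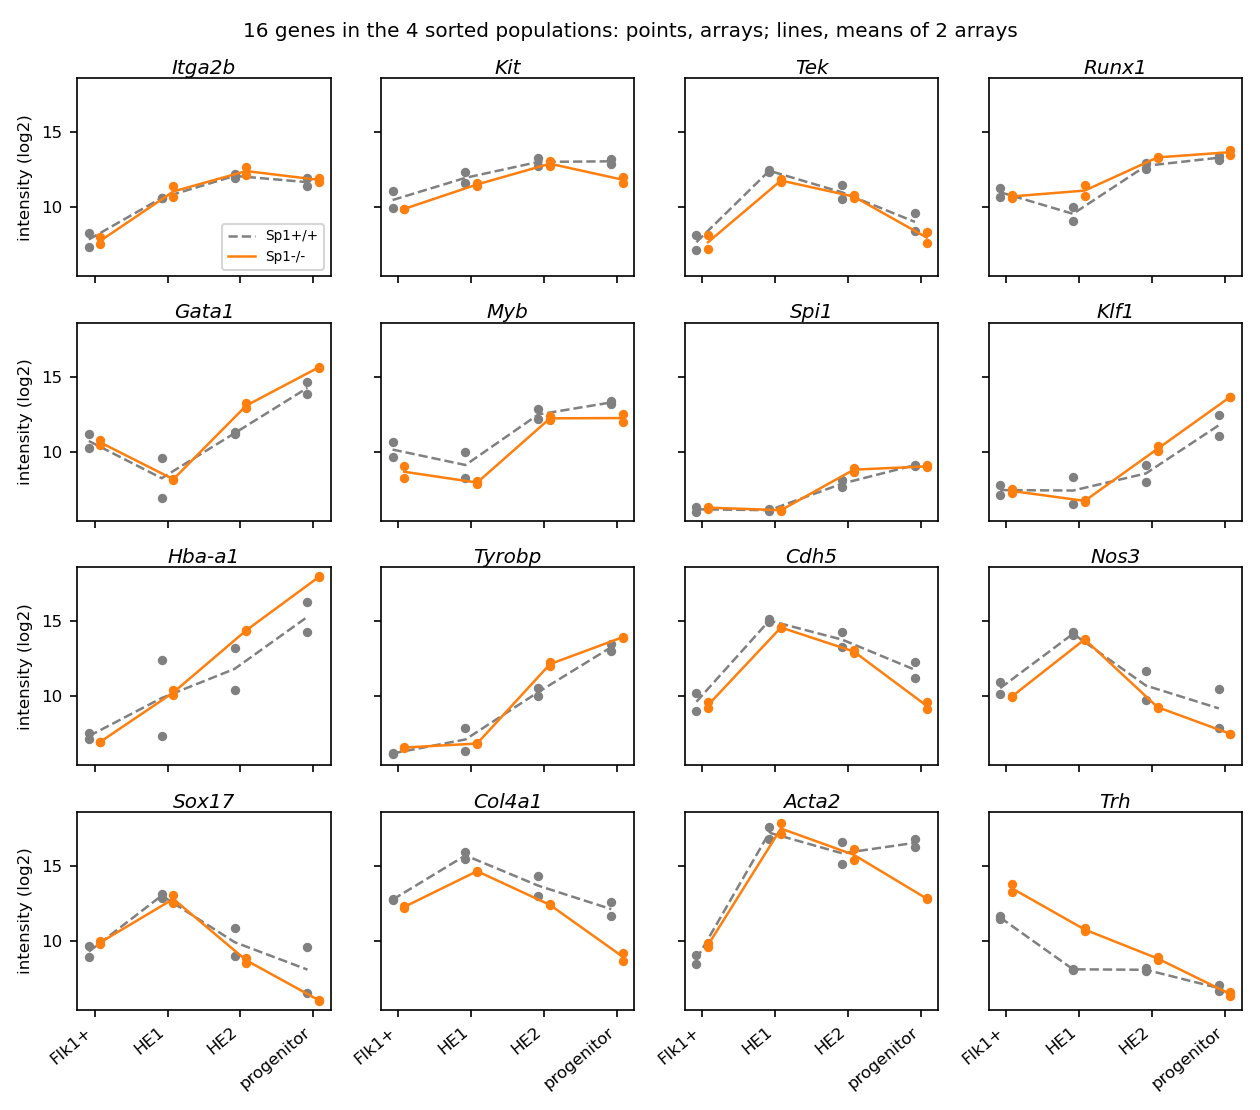
Log2 normalized intensity (y axis) of 16 genes in Flk1+ mesoderm, HE1, HE2 and progenitors of Sp1+/+ (grey, dashed) and Sp1-/- cells (orange, solid); points are arrays and lines join means of 2. In Sp1-/- cells Gata1 climbs from 8.2 and 8.13 in HE1 to 15.6 and 15.67 in progenitors, whereas progenitor Spi1, at 8.96 and 9.08, is close to its HE2 values of 8.67 and 8.93.

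The 4 populations place the HE1 to HE2 step within a longer course in Sp1-/- cells; it shares its HE2 arrays with the step to progenitors, so the values are given side by side. Some genes were near their progenitor level in HE2: Plek, Spi1 (8.67 and 8.93 against 8.96 and 9.08), Myb (12.36 and 12.08 against 12 and 12.48), P2rx1 (12.75 and 12.94 against 12.88 and 12.8) and Runx1 (13.36 and 13.26 against 13.83 and 13.5). Others were still at least 2 log2 units below it, erythroid and leukocyte genes among them: Hba-a1 read 14.42 and 14.37 in HE2 against 18 and 17.93 in progenitors, Alas2 10.45 and 10.25 against 14.51 and 14.37, and Klf1 10.02 and 10.36 against 13.66 and 13.65. Acp5 read 11.64 and 11.86 in HE2 against 15.78 and 15.68, and Ccl9 11.24 and 11.57 against 13.75 and 13.74. Mfng and Mmrn1 were higher in HE2 than in any other Sp1-/- population, with Mmrn1 at 10.55 and 10.43 in HE2 and 9.48 and 9.08 in progenitors. Among the falling genes Cdh5, Col4a1 and Robo4 had most of their distance still to go: Col4a1 read 12.36 and 12.42 in HE2 and 8.66 and 9.21 in progenitors. Endothelial genes of the HE1 peak, such as Sox17 (10 and 9.8 in Flk1+ mesoderm), were lower in the mesoderm than in HE1.

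Among the endothelial receptor and junction genes with a promoter at hand, Robo4 fell farthest on the chromosomes searched. A chromosome left out of that choice may hold a gene that fell farther. Proximal promoters are shown for the sorted marker, the largest riser, the blood factor with the largest rise, and Robo4. They are the 250 bases before the RefSeq start on the gene strand, build GRCm38.p6, with letters of the searched motifs in capitals: the GC box GGGCGG that Sp factors bind, the GATA site AGATAA, the RUNX site TGTGGT and the ETS site CAGGAAG, on either strand. Itga2b lies on the minus strand at chr11:102469884-102470133, Plek on the minus strand at chr11:17008719-17008968, Gata1 on the minus strand at chrX:7967911-7968160 and Robo4 on the plus strand at chr9:37401722-37401971.
Itga2b: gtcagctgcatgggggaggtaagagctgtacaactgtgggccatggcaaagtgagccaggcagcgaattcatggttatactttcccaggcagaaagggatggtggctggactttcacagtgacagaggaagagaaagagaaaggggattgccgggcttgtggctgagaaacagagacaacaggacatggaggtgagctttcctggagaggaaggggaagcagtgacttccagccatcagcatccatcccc
Plek: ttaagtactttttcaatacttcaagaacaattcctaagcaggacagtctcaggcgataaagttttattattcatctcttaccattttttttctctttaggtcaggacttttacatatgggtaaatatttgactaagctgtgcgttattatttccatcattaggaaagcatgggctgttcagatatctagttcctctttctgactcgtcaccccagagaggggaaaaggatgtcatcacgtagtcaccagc
Gata1: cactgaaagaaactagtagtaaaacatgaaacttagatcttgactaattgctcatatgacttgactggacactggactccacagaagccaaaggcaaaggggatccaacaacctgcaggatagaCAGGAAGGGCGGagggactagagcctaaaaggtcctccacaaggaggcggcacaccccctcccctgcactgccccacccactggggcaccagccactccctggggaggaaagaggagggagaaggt
Robo4: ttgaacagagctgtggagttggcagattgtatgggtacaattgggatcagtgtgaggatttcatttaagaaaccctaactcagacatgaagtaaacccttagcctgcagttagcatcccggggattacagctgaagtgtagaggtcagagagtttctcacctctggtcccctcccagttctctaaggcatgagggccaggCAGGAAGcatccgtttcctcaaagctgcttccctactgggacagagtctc

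Itga2b and Plek had no match in these windows. Gata1 had a GC box 120 bases and an overlapping ETS site 126 bases before its start, and Robo4 an ETS site 50 bases before it. Across the promoters of tested genes, from 250 bases before to 50 after the start, 49.2% held a GC box, 9.36% the GATA, 14.2% the RUNX and 12.4% the ETS letters (19550 promoters of 15961 genes). For genes that rose the shares were 49.9%, 10.5%, 17.3% and 16.2% (687 promoters of 523 genes), and for genes that fell 63.3%, 6.96%, 11.7% and 11.4% (1077 promoters of 801 genes). The GC box was thus as frequent in promoters of risers as in all promoters and more frequent in those of genes that fell; these shares are a description, and a match is not a bound site.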

How the data were processed

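RNA from sorted cells was amplified, labelled with Cy3 and hybridized to Agilent one-color mouse arrays (62976 spots). Per the labels, spot intensity was extracted with Agilent Feature Extraction 10.7.1.1, and the authors background-corrected it with the normexp method of limma, quantile normalized it and deposited it as log2 values. The methods give an offset of 16. The deposited log2 values equal normexp with an offset of 50 followed by quantile normalization to within 0.005, and differ from an offset of 16 by up to 1.63. The larger offset compresses changes of dim genes, and few probes then fall below a floor. No array had a saturated spot. Arrays have no read depth, and their number, 2 a group, limits the precision.

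The deposited log2 values were used as given. Probes were matched to 37932 targets, 20869 of them named through RefSeq accessions and 12 through a symbol or synonym; the other 17051 kept their array identifier. Probes below log2 6 on all 16 arrays were left out and the brightest remaining probe was taken for each gene. One limma model (R 4.3.3, limma 3.58.1) with 8 group means gave the change from HE1 to HE2 in each genotype and the difference of the changes, with calls made where the p before adjustment was at most 0.01 and the log2 change 1 or more, as in the study's methods, with Benjamini-Hochberg values beside it. "At least N-fold" sets the brighter group's mean against the higher of the dim probe's own signal and the lowest signal well above background. Named genes were the 15 largest called changes in each direction with a symbol, up to 8 called members of each list, key members not called, and the 10 largest called differences in each direction. The 15 had to have HE1 and HE2 arrays that did not overlap and a higher population well above background on both arrays. The 10 had to be well above background on both arrays of at least 1 group. Csf1r, Ptprc and Mef2c were added after their values were seen. Members, lists and tests were chosen with earlier results of these data known. Listed genes such as Hbb-b1, Ahsp and Cd68 had no tested probe. Some genes named by this rule, and 1 of the lists, are not reported here. Scripts were tested on simulated data. Alternatives in processing were an offset of 16, no background correction, the 75th percentile scaling of Agilent's processed signals, other probe filters and the mean over probes. Those in testing were adjusted thresholds, Student's t-test, a replicate block, fewer arrays in the fit and each array left out. Replicate numbers were not taken as pairs: no label ties them to a shared culture.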

Additional observations from a re-analysis of the deposited data

Results flagged for a closer look

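The change from HE1 to HE2 differed between genotypes, by a limma test of the difference itself, for the genes named here (p of at most 0.01 before adjustment and a difference of 1 or more in log2). Each value is the change in Sp1-/- minus that in Sp1+/+ cells. Each genotype lay on its own slide, and for these values the 2 cannot be told apart, and the adjusted p was above 0.05 for most of them.

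Among myeloid and leukocyte genes the differences were 2.69 for Acp5, 2.46 for Ccl3, 2.37 for Cx3cr1, 2.13 for Tyrobp, 2.04 for Ccdc88b, 1.87 for Ptpn6, 1.84 for Btk, 1.77 for Csf1r, 1.65 for Ptprc, 1.63 for Fcer1g, 1.53 for Sla, 1.33 for Ms4a6d, 1.17 for Vav1, 1.12 for Coro1a and 1.08 for Cst7. Those that passed an adjusted p of 0.05 were Ccdc88b (0.01), Ptpn6 (0.0301), Ms4a6d (0.0382) and Btk (0.0393). Receptor genes gave 2.38 for Adgrg5 (adjusted p = 0.0259, limma), 1.22 for Il6ra and 1.12 for Il17ra.

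Platelet and erythroid genes gave 1.87 for Plek, 1.58 for Mmrn1 (adjusted p = 0.0315, limma), 1.11 for Treml1, 1.91 for Add2, 1.65 for Trim10 and 1.2 for Epor. Of the secreted protein genes, Ambp stood at 2.32 (adjusted p = 0.00721, limma) and Hp, the haptoglobin gene, at 2.12. The remaining higher differences were 2.13 for Mamdc2, 2.06 for Rph3a, 1.99 for Myo1f, 1.91 for Ifitm1, 1.64 for Mdga1, 1.58 for Arhgap18, 1.38 for Trib3 and 1.26 for Mef2c.

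Lower differences of matrix and adhesion genes were -1.66 for Lum, -1.30 for Cdh2, -1.02 for Lamb1 and -1.01 for Itga7. The others were -2.13 for Trio, -1.79 for the BMP modulator gene Bmper, -1.95 for Olfr611, -1.90 for Trh (adjusted p = 0.0365, limma), -1.84 for Klhl36 (adjusted p = 0.0305, limma), -1.79 for Spink1, -1.72 for Galnt14, -1.63 for Cdkn1c and -1.59 for Insm1. Trio rests on Sp1-/- HE1 arrays of 11.09 and 12.82, and on Sp1+/+ arrays of 10.09 and 10.27 in HE1 and 10.96 and 10.67 in HE2. With single arrays left out the call was lost for Lum (-0.96 without Sp1-/- HE1 replicate 1, and -1.45 to -1.67 without 4 others), Cdkn1c (-1.19 to -1.65, for 5 arrays), Trio (-1.98 to -2.21, for 4 arrays), Hp (1.65 to 2.1, 3 arrays) and Rph3a (1.65 without Sp1-/- HE2 replicate 2). As a mean over probes the differences of Trio (-0.74) and Galnt14 (-0.94) were not called. With the 75th percentile scaling the calls of Ccl3 (3.73), Ambp (2.86), Tyrobp (1.28), Hp (2.32), Trio (-1.83), Spink1 (-1.71), Galnt14 (-1.39) and Cdkn1c (-1.3) were lost.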

How the results depend on the processing

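For HE1 to HE2 in Sp1-/- cells, the 75th percentile scaling of Agilent's processed signal gave 1264 rises and 1767 falls (58.3% lower against 62.9%). The methods' t-test gave 321 rises and 471 falls (792) unadjusted, and 0 rises and 0 falls (0) at an adjusted p of 0.01, where its lowest adjusted p was 0.176; 652 rises and 991 falls had an unadjusted p of 0.05 or less, and 33 genes without spread were not tested. Leaving out 1 array gave 689 to 1098 rises, 1109 to 1689 falls and 1884 to 2787 calls. For the difference between genotypes, 23 higher and 13 lower (36) passed an adjusted p of 0.05, and 3 and 2 (5) passed 0.01. With 1 array left out it gave 121 to 331 higher, 67 to 601 lower and 217 to 932 in all: 331 and 601 without Sp1-/- HE1 replicate 1, 253 higher without Sp1-/- HE2 replicate 1, 67 lower without Sp1-/- HE2 replicate 2, and 214 and 176 lower without Sp1+/+ HE2 replicate 1 and 2. The cause was not tested. A lone array left in a group is assumed to vary like the other groups.

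The other settings kept every one of these counts within 1.5 times. With a replicate block, which pairs arrays by number alone (correlation of deviations 0.062 in Sp1-/- and 0.5 in Sp1+/+ cells), 765 rose and 1340 fell (2105), and 152 and 120 differences were called (272). Named genes were refitted under the changes of processing, filter, probe choice, model and arrays, but not under the adjusted thresholds or Student's t-test. In every setting refitted, 154 of 189 named changes kept their side of the threshold, as did 9 of 20 named differences, and none reversed. Array number and signal near background limit the changes of dim genes.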
